A study of Arabidopsis thaliana with 16 samples.

Results

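The long intergenic transposable elements (TEs) of the Arabidopsis thaliana chromosome arms are 344 annotated elements among 65386 features, of which 31189 were TEs. They were chosen by position and size alone: 2000 or more bases, no overlap with a gene of the same table, and a start outside a pericentromeric window on each of the 5 chromosomes. The windows ran over 11.5 to 17.7 Mb on chromosome 1, 1.1 to 7.2 Mb on chromosome 2, 10.3 to 17.3 Mb on chromosome 3, 1.5 to 6.3 Mb on chromosome 4 and 9.0 to 16.0 Mb on chromosome 5. The elements just inside the length limit had 2000, 2003 and 2004 bases and means of 0.164, 13.1 and 11.3 reads per 1000000 assigned reads (RPM). Those just outside had 1992, 1990 and 1983 bases and means of 87.0, 0.0247 and 121 RPM. Small RNA of 21 to 24 nt was sequenced after immunoprecipitation (IP) of a green fluorescent protein (GFP) tag. The lines were pAGO5::GFP-AGO5, pAGO5::GFP-AGO9 and p35S::GFP, all in col-0, so the AGO5 promoter drove both tagged Argonautes, AGO9 included. AGO5 IP, AGO9 IP, GFP-only IP and unprecipitated input were each taken at day 35, from inflorescence and flower meristems with young buds, and at day 7, from shoot apices. Each of these 8 groups had 2 libraries, and age and tissue changed together. At both ages the first input library was made from plants with tagged AGO5 and the second from plants with tagged AGO9. Nothing states that replicates came from separate plants, so p-values measure only the spread between these libraries, which may be technical.

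Plants silence TEs by RNA-directed DNA methylation. RNA polymerase IV transcripts are copied and cut into 24 nt small interfering RNAs (siRNAs), which an Argonaute of the AGO4 clade, to which AGO9 belongs, carries to matching chromatin. Shorter siRNAs of 21 and 22 nt come from transcribed TEs and from other Dicer enzymes, and AGO5, a member of the AGO1 clade, is known to bind small RNAs that begin with C. TE family names were not used here, so relatives were grouped by their own sequence.

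The elements were 2000 to 16936 bases long with a median of 3159, and 99 lay on chromosome 1, 59 on chromosome 2, 52 on chromosome 3, 59 on chromosome 4 and 75 on chromosome 5. A distance of under 1000 bases to the nearest gene held for 271 of them, 66 lay 1000 to under 5000 bases away and 7 lay farther. Terminal direct repeats of 80 or more aligned bases, with no identity minimum set, bounded 64 elements, terminal inverted repeats bounded 3, and neither was found in 277. Pairwise alignment (80% or more identity over 80% or more of the shorter element) placed 120 elements in 28 sequence groups and left 224 of the 344 in no group. The shorter element also had to reach 80% of the length of the longer. Related elements of unlike length could thus be in no group, as were AT2TE00015, AT2TE00075 and AT2TE00110, whose starts are printed below. By base composition, 126 elements were under 30% GC, 93 had 30 to under 40%, and 125 had 40% or more.

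The sequences printed here came from 3 sets, all read from the TAIR10.1 RefSeq genome, whose nuclear chromosomes have TAIR10 coordinates. Whether the values below depend on them was not tested. The first set is the first 90 bases, on the element's own strand, of 6 elements that were among the most abundant or the most increased in AGO5 IPs. Capitals mark GTAACNNNCG, a 10-base string that these starts share, with N where they differ, chosen after values were seen. The positions, all on the minus strand, are chr2:29337-29426 for AT2TE00015, chr2:49707-49796 for AT2TE00075, chr2:63916-64005 for AT2TE00110, chr4:6537071-6537160 for AT4TE27915, chr1:20477838-20477927 for AT1TE67645 and chr2:9193636-9193725 for AT2TE38905.
AT2TE00015: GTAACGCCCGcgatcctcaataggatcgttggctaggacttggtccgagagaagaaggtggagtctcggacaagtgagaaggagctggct
AT2TE00075: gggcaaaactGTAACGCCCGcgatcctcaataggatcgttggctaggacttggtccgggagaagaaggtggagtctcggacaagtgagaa
AT2TE00110: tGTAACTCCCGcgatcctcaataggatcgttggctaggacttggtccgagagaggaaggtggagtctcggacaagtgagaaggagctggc
AT4TE27915: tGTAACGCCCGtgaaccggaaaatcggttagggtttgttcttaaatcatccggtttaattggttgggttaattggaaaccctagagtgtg
AT1TE67645: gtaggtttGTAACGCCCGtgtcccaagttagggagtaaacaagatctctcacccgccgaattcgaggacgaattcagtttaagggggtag
AT2TE38905: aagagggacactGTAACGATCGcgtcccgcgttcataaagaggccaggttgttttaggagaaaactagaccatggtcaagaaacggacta
The string was searched on both strands in the first and last 100 bases. It was found in 12 of the 344 elements (3.49%), in 48 of 1980 long intergenic TEs inside the windows (2.42%) and in 41 of 5391 intergenic arm TEs of 200 or more but under 2000 bases (0.761%). The 6 printed elements, from which the string was taken, are among the 12 by construction. The share in the 344 elements is thus raised and cannot be compared with the others. Of the 12 elements, 9 had enough reads to be tested. AT2TE00010, with the largest day 7 AGO5 minus input difference of the elements named (2.67), was not among the 12. The starts of AT2TE00015, AT2TE00075 and AT2TE00110 are alike well beyond the string. The match is a description of letters, not a site.

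The second set is the left terminal repeat of 3 elements of sequence group 2, on the plus strand at chr1:6538419-6538580 for AT1TE21210, chr4:7359463-7359623 for AT4TE32060 and chr4:7816826-7816987 for AT4TE34305. Capitals mark stretches of 24 or more bases that also occur, without a mismatch, anywhere in a whole partner element and not only in the bases printed. The partner is AT4TE32060 for AT1TE21210, and AT1TE21210 for both other lines. A 24 nt read from such a stretch has more than 1 place of origin.
AT1TE21210: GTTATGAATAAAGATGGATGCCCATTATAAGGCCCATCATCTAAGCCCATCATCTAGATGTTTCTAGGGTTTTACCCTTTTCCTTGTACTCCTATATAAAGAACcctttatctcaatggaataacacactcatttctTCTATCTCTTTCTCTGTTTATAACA
AT4TE32060: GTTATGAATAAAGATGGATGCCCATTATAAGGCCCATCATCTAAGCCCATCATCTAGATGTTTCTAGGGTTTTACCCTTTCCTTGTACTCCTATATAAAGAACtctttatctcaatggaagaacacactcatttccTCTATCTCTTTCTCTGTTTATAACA
AT4TE34305: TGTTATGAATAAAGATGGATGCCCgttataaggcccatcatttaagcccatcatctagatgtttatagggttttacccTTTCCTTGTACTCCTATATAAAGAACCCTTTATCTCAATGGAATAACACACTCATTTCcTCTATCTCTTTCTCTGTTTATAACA
The third set is from 2 elements of sequence group 1, bases 31 to 210 of AT5TE19645 and bases 1 to 180 of AT1TE85730, on the minus strand at chr5:5429883-5430062 for AT5TE19645 and chr1:26171300-26171479 for AT1TE85730. Capitals again mark stretches of 24 or more bases that occur anywhere in the other element.
AT5TE19645: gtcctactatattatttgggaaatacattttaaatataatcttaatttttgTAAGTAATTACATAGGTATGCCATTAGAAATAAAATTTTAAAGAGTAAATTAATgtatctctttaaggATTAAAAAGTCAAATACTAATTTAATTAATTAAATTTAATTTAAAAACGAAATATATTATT
AT1TE85730: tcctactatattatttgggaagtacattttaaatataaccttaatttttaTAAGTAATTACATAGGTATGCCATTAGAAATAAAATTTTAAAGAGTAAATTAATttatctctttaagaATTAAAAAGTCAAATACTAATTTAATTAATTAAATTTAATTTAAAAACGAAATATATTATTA

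Library sizes, as reads recovered from the RPM values, ran between 11466340 and 73734505 in AGO5 IPs, 8038791 and 99594348 in AGO9 IPs, 3578524 and 23173991 in GFP-only IPs, and 14495665 and 53379641 in inputs. A count of 3 reads, the upper limit that a count of 0 allows, was worth between 0.0301 and 0.838 RPM, for counting error only. No read was found in any library at 8 of the 344 elements, and 289 (84.0%) had a mean of 1 RPM or more and were tested. A mean of 10 RPM or more was reached by 230 and of 100 RPM or more by 106. All 7 elements that lay wholly inside another annotated TE were among the 8 without reads. They were AT1TE36505, AT2TE00035, AT2TE00045, AT2TE00120, AT3TE18045, AT4TE27185 and AT5TE62750, a set named after its values were seen. AT2TE00035, AT2TE00045 and AT2TE00120 belonged to sequence group 5 with AT1TE67645 and AT2TE38905, which did have reads. Whether reads at nested elements were left out in counting was not tested. Reads were concentrated: the 10 most abundant elements held 18.9% of the RPM of all 344 and the top 50 held 56.4%.

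The elements took a larger share of AGO9-bound than of AGO5-bound small RNA at both ages. So did short intergenic arm TEs, with means of 12.2% against 5.23% at day 35 and 8.26% against 3.98% at day 7. Long intergenic TEs inside the windows averaged 31.0% against 30.6% at day 35 and 41.8% against 33.8% at day 7. At day 35 the 344 elements held 2.73% and 2.44% of reads in AGO5 IPs, 4.73% and 4.36% in AGO9 IPs, 2.25% and 2.51% in GFP-only IPs, and 5.70% and 5.38% in inputs. At day 7 they held 2.07% and 2.88% in AGO5 IPs, 4.40% and 4.44% in AGO9 IPs, 0.722% and 1.05% in GFP-only IPs, and 2.42% and 2.71% in inputs. AGO5 IPs lay below AGO9 IPs without overlap at both ages, by 1.96 percentage points at day 35 and 1.95 at day 7. AGO9 IPs lay below input at day 35, by 0.993 points, and above input at day 7, by 1.86 points. With 2 libraries against 2, an exact two-sided permutation test cannot go below p = 0.333, and it gave p = 0.333 for each of these differences and for AGO5 IP against input at day 35. At day 7 AGO5 IPs and inputs overlapped, and the exact permutation test gave p = 1.0.

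The size of the bound reads separated the Argonautes, on these elements and over all TE features. Over all TE features the 22 nt share averaged 31.6% in AGO5 IPs and 4.64% in AGO9 IPs at day 35, and 26.6% and 2.75% at day 7. At day 35 the 24 nt share of the reads on these elements was 46.2% and 44.2% in AGO5 IPs, 90.6% and 67.5% in AGO9 IPs, 31.2% and 60.8% in GFP-only IPs, and 60.6% and 65.0% in inputs. At day 7 it was 69.3% and 66.0% in AGO5 IPs, 92.9% and 96.7% in AGO9 IPs, 49.0% and 40.8% in GFP-only IPs, and 64.5% and 65.2% in inputs. The replicates of the day 35 AGO9 and GFP-only IPs lay far apart. The 22 nt share averaged 24.9 ± 0.022% in AGO5 IPs, 4.001 ± 3.3% in AGO9 IPs and 5.51 ± 0.81% in inputs at day 35 (SD, n = 2 each). At day 7 it averaged 19.7 ± 4.9% in AGO5 IPs, 0.990 ± 0.75% in AGO9 IPs and 5.30 ± 0.12% in inputs (SD, n = 2 each). AGO5 IPs were above AGO9 IPs and inputs in every library (exact two-sided permutation p = 0.333, the smallest possible). GFP-only IPs also had high 22 nt shares, 24.6% and 12.5% at day 35 and 14.0% and 17.3% at day 7. The AGO5 libraries, at 24.9% and 24.9% at day 35 and 16.2% and 23.2% at day 7, overlapped them at day 7 and lay just above the higher one at day 35. Element by element the pattern was broad: among the 230 elements with a mean of 10 RPM or more, 24 nt was the most frequent size at 211 in day 35 AGO5 IPs and at 230 in day 35 AGO9 IPs. The median 22 nt share per element was 22.3% in AGO5 IPs, 3.76% in AGO9 IPs, 15.5% in GFP-only IPs and 4.70% in inputs at day 35. At day 7 the medians were 9.72% in AGO5 IPs, 0.832% in AGO9 IPs, 12.99% in GFP-only IPs and 4.77% in inputs, so the GFP-only median was above that of AGO5.

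**Figure D1:**
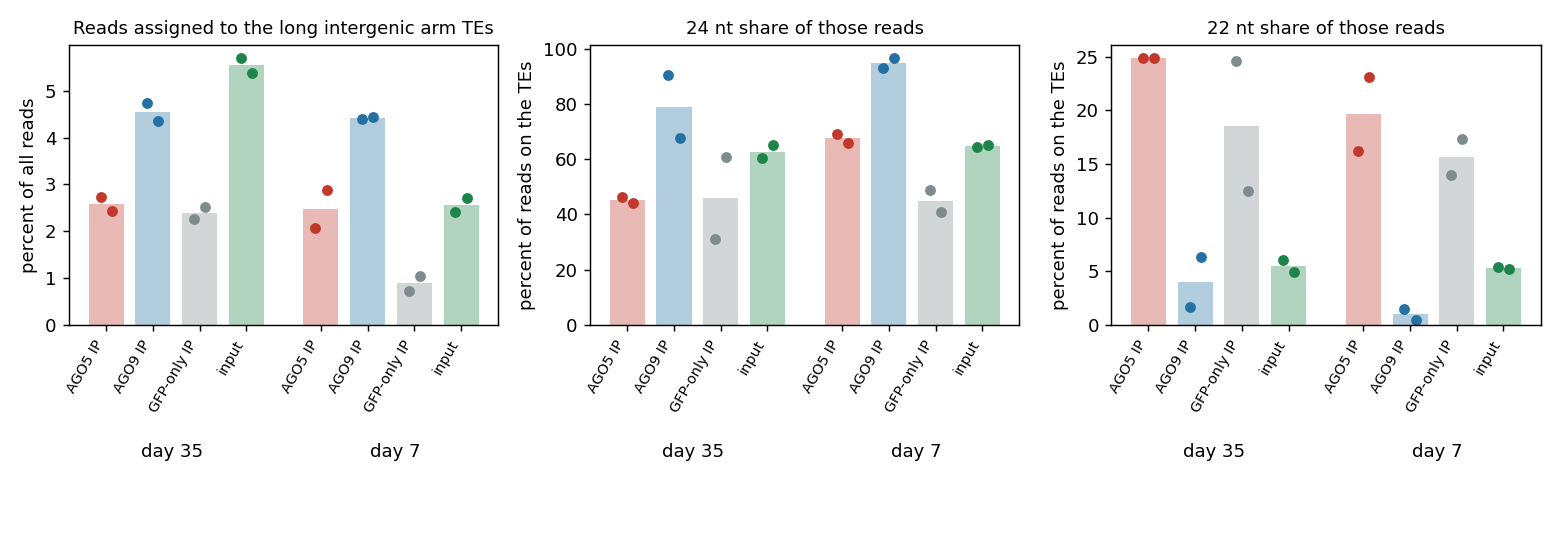
Percent of all reads assigned to the 344 elements (left), and the percent of those reads that were 24 nt (middle) or 22 nt (right), for AGO5 IP, AGO9 IP, GFP-only IP and input at each age. Points are libraries and bars are the means of 2. AGO9 IPs lie above AGO5 IPs in the left and middle panels, and AGO5 IPs lie above AGO9 IPs and inputs, but not clear of GFP-only IPs, in the right panel.

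Against the GFP-only IP, the background of the pull-down, most elements were higher in AGO9 IPs. At day 35, 162 of the 289 were higher and 0 lower (limma, adjusted p under 0.05), where 38.5% of all 17020 tested features were higher and 6.50% lower. At day 7, 260 were higher and 0 lower, against 60.2% higher and 4.92% lower of all features. For AGO5 IPs, 71 elements were higher and 14 lower at day 35 (24.6% and 4.84%), near the shares of all features (24.5% and 5.26%). At day 7, 109 were higher (37.7%) and 0 lower, against 24.5% and 1.39% of all features. These counts depend on scaling: with libraries scaled to reads on TE features, 56 were higher and 73 lower in AGO5 at day 35, while 28 were lower and 20 higher at day 7. For AGO9, edgeR called 94 elements higher at day 35. Its day 7 calls were 11 higher and 1 lower. AT3TE16035, 5277 bases with direct repeats, had 28.1 and 18.8 RPM in day 35 AGO5 IPs and 0 RPM in both GFP-only IPs, so it was at least 30.1-fold higher against the 3-read limit per library (limma adjusted p = 3.456e-05). AT1TE02075 had 34.5 and 30.3 RPM in the day 35 AGO5 IPs and 0.279 and 0 RPM in the GFP-only IPs, which is 1 read there, a ratio of 254 with a 95% counting interval between 45.4 and 10031. AT1TE14085 was at least 27.8-fold higher in day 35 AGO9 IPs, with 20.8 and 22.5 RPM, against 0 RPM in both GFP-only IPs. AT1TE36060 had 76.7 and 169 RPM in the day 35 AGO9 IPs and 6.71 and 0 RPM in the GFP-only IPs. At day 7 AT4TE07410 (288 and 399 RPM in AGO9 IPs, 13.03 and 13.9 RPM in GFP-only IPs) and AT3TE40145 (217 and 343 RPM, 13.4 and 16.4 RPM) were named for AGO9. AT3TE40145 (157 and 361 RPM in AGO5 IPs) and AT4TE48215 (75.8 and 214 RPM against 7.89 and 10.01 RPM) were named for AGO5. Among elements lower in AGO5 than GFP-only at day 35, AT2TE35840 had 12.2 and 12.1 RPM against 37.7 and 65.9 RPM, and AT1TE60640 had 90.4 and 43.8 RPM against 174 and 188 RPM.

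Against input, the elements were lower in AGO5 IPs more often than higher at day 35. Of the 289 elements, 8 were higher and 126 lower (2.77% and 43.6%), where 3.84% of all features were higher and 24.2% lower. The median log2(RPM + 1) difference was -1.14 over the elements and -0.65 over all features. At day 7, 20 elements were higher and 59 lower (6.92% and 20.4%), against 7.73% and 10.4% of all features, and the medians were -0.47 and -0.30. More elements were lower than higher at day 35 in each scaling and in both count-based fits, but at day 7 edgeR on the recovered reads gave 25 higher and 6 lower, and 24 nt reads alone gave 10 and 2. Median centring moved the median of all features at day 35 to 0.08, and there 21 elements were higher and 72 lower. Without AGO5 IP replicate 2, or without either input replicate, none of the 289 elements was called at day 7 by the limma fit. Its unadjusted p was under 0.05 for 113 of the 289 with all libraries. Many calls fell on related elements. Among the 175 tested elements in no sequence group, the limma fit called 6 higher and 52 lower at day 35. At day 7 it called 12 of the 175 higher and 15 lower. In the other long class, the 1838 tested long intergenic TEs inside the windows, the median AGO5 difference was 0.15 at day 35 and 0.97 at day 7. In the 2674 tested short intergenic arm TEs it was -1.62 and -0.77. These sets were set side by side as medians, and the difference between them was not tested.

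The elements lower in AGO5 were mainly AT-rich. At day 35 the median AGO5 minus input difference was -1.88 for elements under 30% GC, with 0 higher and 93 lower of 106 tested. It was -0.69 for 30 to under 40% GC, with 0 higher and 22 lower of 85, and -0.25 for 40% or more, with 8 higher and 11 lower of 98. At day 7 the medians were -1.13 (0 higher and 57 lower), -0.27 (5 and 2) and 0.13 (15 and 0). Over the 289 elements the Spearman correlation of GC content with the AGO5 minus input difference was 0.65 at day 35 and 0.76 at day 7. For AGO9 minus input it was 0.52 and 0.44. The points share libraries, and relatives share sequence. Without sequence groups 1 and 2 and the first 70000 bases of chromosome 2, 241 elements remained. Of these, over all GC classes, 4 were higher and 84 lower at day 35, and 15 and 21 at day 7. There the AGO5 correlations were 0.51 and 0.65. In the 117 elements in no sequence group and with 50% or more of their 24-base windows unique in the genome, the AGO5 values were 0.60 and 0.75. With 24 nt reads alone they were 0.57 and 0.73 over 287 elements. Long TEs inside the windows gave 0.58 and 0.57 for AGO5 and short arm TEs 0.30 and 0.43. The AGO9 value at day 7 depended more on setting and set. With quantile normalization it was 0.06, where day 35 gave 0.54. In the same 117 elements the AGO9 values were 0.42 at day 35 and 0.26 at day 7. Long TEs inside the windows gave 0.26 and 0.26 for AGO9, and short arm TEs 0.14 and 0.07.

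**Figure D2:**
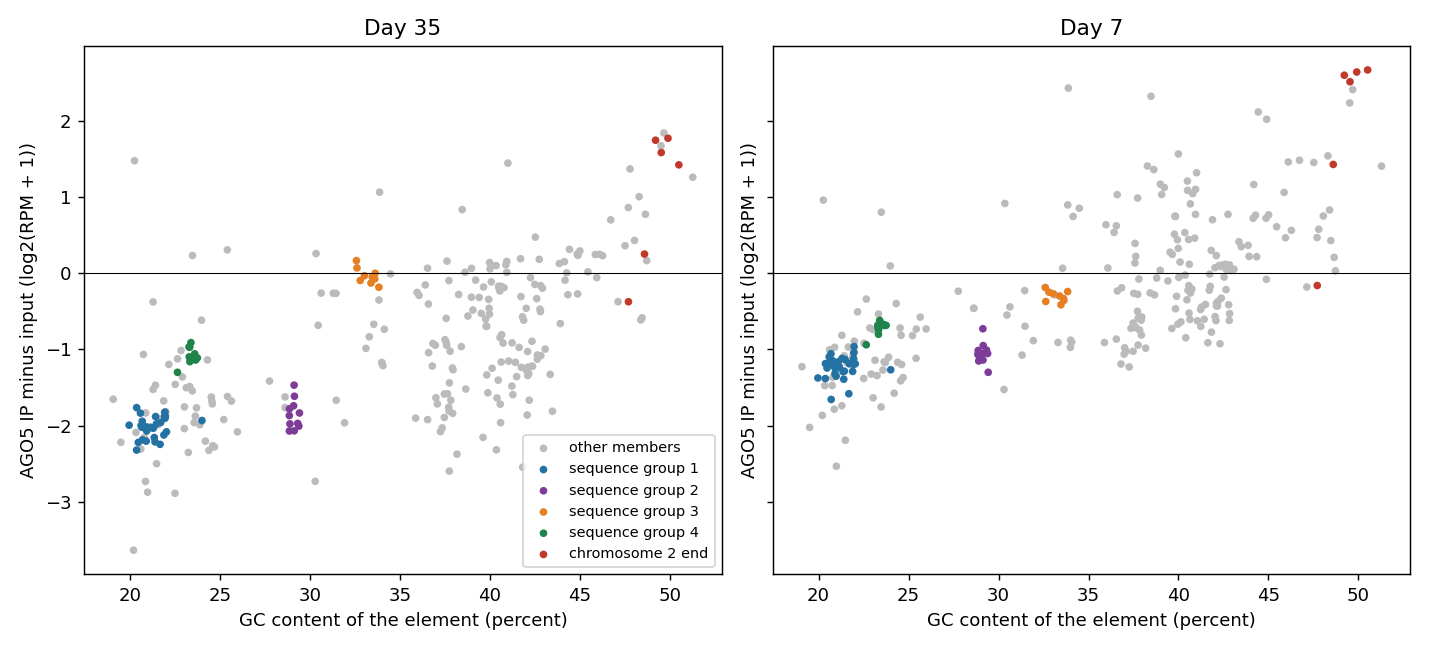
GC content of each of the 289 tested elements in percent against its AGO5 IP minus input difference on the log2(RPM + 1) scale, at day 35 (left) and day 7 (right), coloured by set. Points at about 20% GC lie near -2 at day 35, and most points of the chromosome 2 end, at about 50% GC, lie above 0.

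Element length went the same way as GC content. At day 7 the median AGO5 difference was -0.81 in elements of 2000 to under 3000 bases, -0.45 in those of 3000 to under 5000 and 0.10 in those of 5000 or more. At day 35 the longest class had -0.64 and the middle class -1.17. The shortest class had a median GC of 24.8% and the longest 40.01%, and the part of each property was not tested.

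Sequence group 1 was the largest, with 32 elements of 2035 to 3174 bases on all 5 chromosomes, a median GC of 21.1% and a median pairwise identity of 91.5%. All 31 tested were lower in AGO5 IP than in input, at day 35 (median -2.02) and at day 7 (median -1.20). At day 7 edgeR called 4 of them and the fit on 24 nt reads alone called 0. Summed over the group, GFP-only IPs were below inputs too, with 5754 and 6200 RPM against 16810 and 15504 RPM at day 35. At day 7 the sums were 1721 and 2557 RPM against 7034 and 7984 RPM. AGO5 IPs summed to 4695 and 3360 RPM at day 35 and to 3393 and 2994 RPM at day 7. AT5TE19645 had 186 and 120 RPM in AGO5 IPs, 410 and 396 RPM in AGO9 IPs and 645 and 576 RPM in inputs at day 35. AT1TE85730 had 179 and 119 RPM, 401 and 374 RPM and 627 and 566 RPM in the same libraries. The 2 elements lie on different chromosomes, and their values nearly coincided in these libraries. Within group 1 the median correlation of log2 values over 16 libraries between pairs was 0.99, against 0.60 over pairs of all 289 elements. The median share of 24-base windows unique in the genome was 27.6% in this group, and whether reads were assigned to several copies was not tested. None of the 31 was called in AGO9 IP against input at either age, with medians of -0.56 at day 35 and 0.42 at day 7 whose signs depend on scaling (median centring gives -0.17 at day 7). In AGO5 against AGO9 all 31 were lower at both ages (medians -1.44 and -1.61), while edgeR called 25 lower at day 35 and 0 at day 7.

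Sequence group 2 held 11 elements of 4608 to 5211 bases, 10 of them bounded by direct repeats as printed above, with a median pairwise identity of 95.6%. AT1TE21210 had 306 and 327 RPM in AGO5 IPs, 1063 and 945 RPM in AGO9 IPs and 1675 and 1053 RPM in inputs at day 35. At day 7 it had 172 and 175 RPM in AGO5 IPs, 417 and 407 RPM in AGO9 IPs and 351 and 418 RPM in inputs. Each AGO5 IP lay below each AGO9 IP and input of its age. GFP-only IPs averaged 575 RPM at day 35 and 104 RPM at day 7, also below the input means of 1364 and 384 RPM. The AGO5 minus input difference was -2.07 ± 0.32 at day 35 (SE, limma adjusted p = 0.00091) and -1.14 ± 0.32 at day 7 (0.031). All 11 elements were lower at day 35 and 7 at day 7, where edgeR called 10 and 0. AT4TE32060, AT4TE34305 and AT1TE14315, also among the 10 most abundant, followed it closely, with 298, 292 and 278 RPM in the first day 35 AGO5 library. Elements of this group were also higher at day 35 than at day 7 in the input. AT1TE14315 had 1566 and 935 RPM in day 35 inputs and 303 and 374 RPM in day 7 inputs, a difference of 1.84 ± 0.37 (SE, limma adjusted p = 0.0083). AT4TE34305 had 1488 and 988 RPM at day 35 and 318 and 376 RPM at day 7, a difference of 1.81 ± 0.29 (0.0020). In this age comparison all 11 were called, also under each other scaling and with edgeR and DESeq2.

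Sequence group 3 held 9 elements with a median GC of 33.4%. No element of it was called in AGO5 IP against input, with medians of -0.05 at day 35 and -0.30 at day 7. At day 35 its AGO5 minus AGO9 median was 0.39, none called, while DESeq2 called 9 higher and edgeR 8. Against input at day 35, DESeq2 also called 9 higher and edgeR 4. Sequence group 4, also 9 elements, was lower in AGO5 at day 35 (8 called, median -1.10), but median centring, edgeR and DESeq2 called none.

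A small GC-rich set was higher in AGO5 IPs. On the first 70000 bases of chromosome 2, an arm end that carries a nucleolus organizer, 9 of the 344 elements lay close together, a range set after values were seen, and 6 could be tested. AT2TE00015, 16355 bases long and 49.2% GC, had 1033 and 1103 RPM in AGO5 IPs, 472 and 648 RPM in AGO9 IPs, 436 and 569 RPM in GFP-only IPs and 278 and 363 RPM in inputs at day 35. At day 7 it had 997 and 2035, 721 and 898, 170 and 251, and 232 and 237 RPM in the same groups. Every AGO5 library lay above every other library of its age. The AGO5 minus input difference was 1.75 ± 0.34 at day 35 (limma adjusted p = 0.0030) and 2.60 ± 0.34 at day 7 (0.0057), with SE after ± for each difference. AT2TE00010, next to it, had 367 and 377 RPM in AGO5 IPs and 113 and 169 RPM in inputs at day 35, and 529 and 1091 RPM against 117 and 120 RPM at day 7. It was also above input in AGO9 IPs, with 382 and 378 RPM at day 35 and 467 and 684 RPM at day 7. AT2TE00075 differed from input by 1.58 at day 35 and 2.51 at day 7, and AT2TE00110 by 1.77 and 2.64. At day 35 the GFP-only mean was itself above the input mean at AT2TE00075 (235 against 147 RPM), AT2TE00110 (152 against 80.1 RPM) and AT2TE00010 (181 against 141 RPM). It was below at AT2TE00115 (194 against 336 RPM). At day 7 the GFP-only mean was below the input mean at AT2TE00075 (93.3 against 111 RPM), AT2TE00110 (55.8 against 64.4 RPM) and AT2TE00010 (82.3 against 119 RPM). Of the 6, 4 were called at day 35 and 5 at day 7, and AT2TE00115 was called only at day 7 (0.25 ± 0.33 at day 35 and 1.43 ± 0.33 at day 7). AT2TE00030, 39.5% of it covered by other annotated TEs, was not called (-0.37 and -0.16). The medians of the 6 were positive in every scaling and in both count-based fits. With 24 nt reads alone, 1 of them was called at day 35 and 4 at day 7.

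Outside that end, the 2 tested elements of sequence group 5 were also higher in AGO5 IPs than in inputs. AT1TE67645 had 177 and 138 RPM in AGO5 IPs, 45.7 and 77.1 RPM in AGO9 IPs and 37.5 and 49.5 RPM in inputs at day 35. It was higher in AGO5 than in input, by 1.84 ± 0.41 (adjusted p = 0.0064), and than in AGO9, by 1.38 ± 0.41 (0.027), in the limma fit. AT2TE38905, on another chromosome, was higher than input by 1.67 ± 0.41 at day 35 (0.0098). Both, like the chromosome 2 elements, carried more 22 nt reads in AGO5 IPs than most: the 22 nt share at day 7 was 39.1% at AT1TE67645 and 36.2% at AT2TE00015, against a median of 9.72% over 230 elements. The share was as high in the GFP-only background at day 7, with 41.7% at AT1TE67645 and 47.4% at AT2TE00015. The Spearman correlation over those 230 between the 22 nt share in day 7 AGO5 IPs and the AGO5 minus input difference was 0.74, and both measures use the same AGO5 reads. AT4TE27915, the most abundant element of all at a mean of 1112 RPM, is 7846 bases long, has direct repeats of 1160 bases and lies 985 bases from UBP9, a ubiquitin protease gene. It had 1323 and 1224 RPM in AGO5 IPs, 1341 and 1313 RPM in AGO9 IPs and 958 and 1197 RPM in inputs at day 35. The day 35 difference was 0.25 ± 0.27 for AGO5, not called. At day 7 it had 1330 and 2442 RPM, 1501 and 1992 RPM and 617 and 694 RPM, and was higher in both IPs (1.46 ± 0.27 and 1.40 ± 0.27). Replicate 2 of the day 7 AGO5 IP, with 73734505 reads, lay above replicate 1, with 30516296 reads, at each of these elements.

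**Figure D3:**
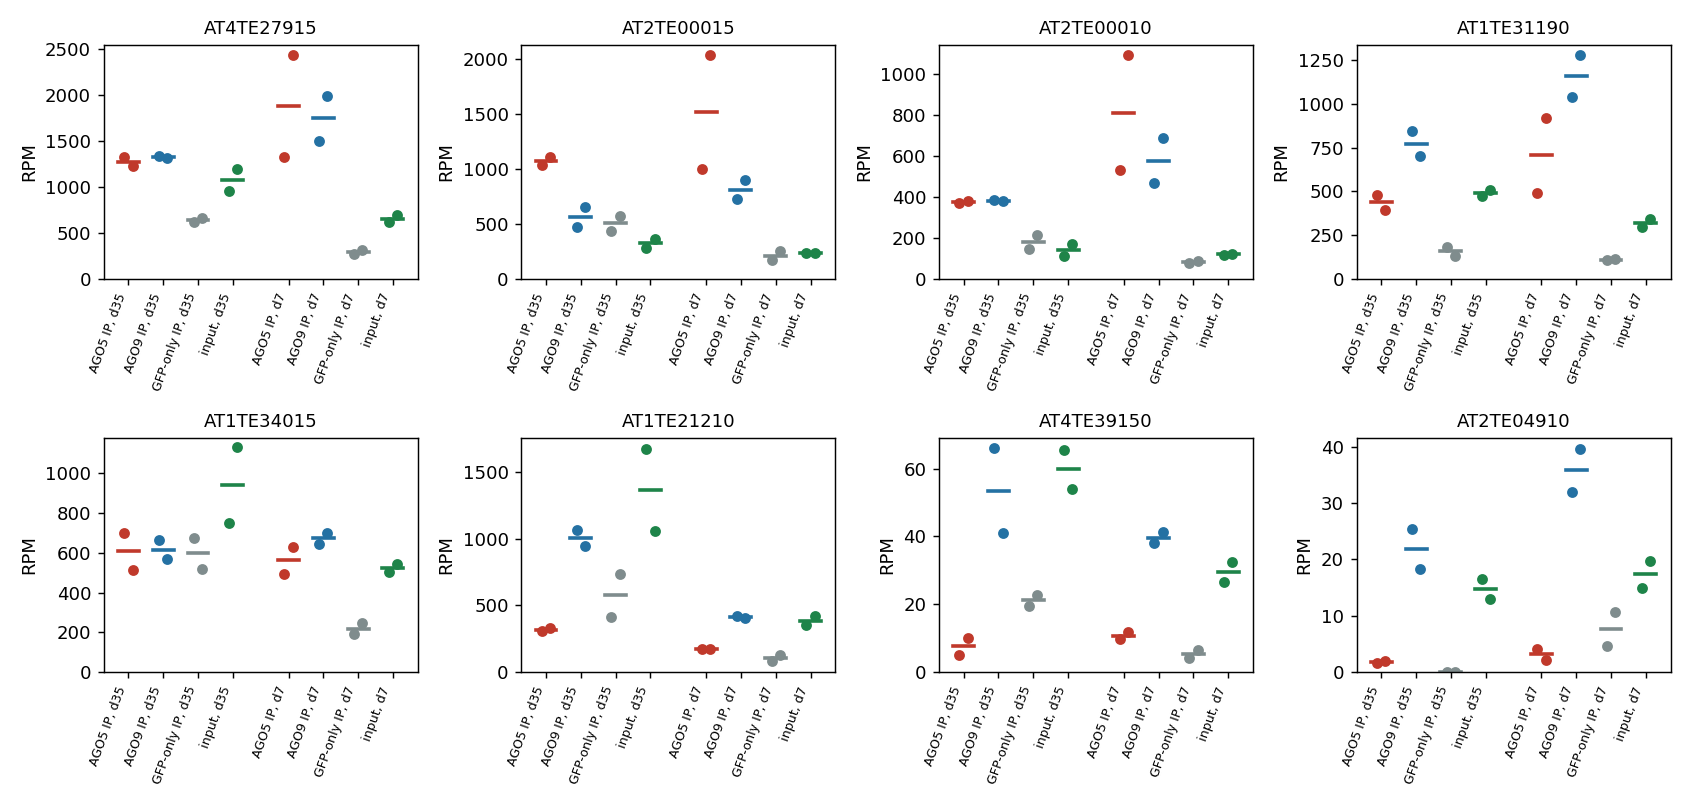
RPM of 8 elements in each of the 16 libraries, with the mean of each pair as a bar: AGO5 IP, AGO9 IP, GFP-only IP and input, day 35 to the left of day 7. AT2TE00015 is highest in AGO5 IPs, while AT1TE21210, AT4TE39150 and AT2TE04910 are lower in AGO5 IPs than in AGO9 IPs and inputs.

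Few elements were called in AGO9 IPs against input at day 35, and more at day 7. At day 35, 3 elements were higher and 0 lower (3.59% and 6.26% of all features), and 38 of 289 had an unadjusted p under 0.05. At day 7, 49 were higher (17.0%) and 0 lower, near the 17.6% higher of all features, of which 9.48% were lower. Of the 289 differences, 284 were positive. The median differences were -0.24 and 0.72, near the medians of all features, -0.30 and 0.65. The count at day 7 was 17 with median centring, 2 with edgeR and 20 with DESeq2, and 0 without input replicate 1. At day 7 AT3TE40145, 12326 bases long, had 217 and 343 RPM in AGO9 IPs and 42.9 and 51.2 RPM in inputs, a difference of 2.52 ± 0.40 (limma adjusted p = 0.0040). AT4TE07410 differed by 2.44 ± 0.46 (0.0054), AT2TE00010 by 2.243 ± 0.35 (0.0040) and AT1TE62470 by 2.01 ± 0.37 (0.0047). The 2 elements of sequence group 16, AT1TE31190 and AT3TE37060, of 14781 and 14787 bases, had 1037 and 1280 RPM and 1058 and 1374 RPM in AGO9 IPs, against 294 and 341 RPM and 277 and 326 RPM in inputs. At day 35 the elements called were AT5TE08220 (58.9 and 71.5 RPM in AGO9 IPs, 12.98 and 19.7 RPM in inputs), AT2TE00010 and AT5TE22990 (94.0 and 106 RPM, 36.3 and 43.5 RPM). AT5TE08220 lies 1457 bases from RR21, a response regulator gene, and nearly all of its 24-base windows (98.5%) were unique in the genome.

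Set directly against AGO9, AGO5 was lower at most elements called. At day 35, 2 were higher and 95 lower (7.06% and 18.6% of all features), and at day 7, 0 higher and 125 lower (3.44% and 21.5%). The medians were -0.85 and -1.18, against -0.34 and -0.74 over all features. With edgeR the day 7 count turned to 12 higher and 2 lower, and at day 35 it was 14 and 49. Many limma calls fell on related elements. Among the 175 tested elements in no sequence group, the limma fit called 1 higher and 36 lower at day 35. At day 7 it called 0 of the 175 higher and 45 lower. AT2TE04910, 21.5% GC and with 71.3% of its windows unique, was among the most different: 1.55 and 2.01 RPM in AGO5 IPs and 25.5 and 18.3 RPM in AGO9 IPs at day 35, and 4.13 and 2.09 RPM against 32.0 and 39.6 RPM at day 7. The differences were -3.03 ± 0.45 (limma adjusted p = 0.00094) and -3.20 ± 0.45 (0.0028). AT4TE39150, beside CYP705A3, had 5.01 and 10.12 RPM in AGO5 IPs, 65.9 and 40.9 RPM in AGO9 IPs and 65.5 and 54.1 RPM in inputs at day 35. AT1TE36060 had the largest difference at day 35 among the elements the naming rule allows, with 3.46 and 4.10 RPM in AGO5 IPs and 76.7 and 169 RPM in AGO9 IPs. AT5TE87580 (12.9 and 5.15 RPM against 122 and 66.3 RPM) and AT5TE64790 (8.26 and 7.01 RPM against 57.0 and 46.99 RPM at day 7) were lower too. AT3TE88185 had 4.62 and 6.31 RPM in AGO5 IPs and 54.2 and 57.1 RPM in AGO9 IPs at day 7, AT1TE64240 had 5.47 and 7.04 RPM and 51.4 and 37.6 RPM, and AT1TE30770 had 13.5 and 10.7 RPM in AGO5 IPs against 40.04 and 48.0 RPM in inputs. GFP-only means at day 7 were above AGO5 means at AT3TE88185 (9.22 against 5.46 RPM) and AT2TE04910 (7.57 against 3.11 RPM). So they were at AT1TE64240 (9.48 against 6.26 RPM) and AT5TE64790 (9.83 against 7.63 RPM), but not AT1TE30770 (9.68 against 12.1 RPM). At day 35 they were above at AT4TE39150 (21.2 against 7.57 RPM) and AT5TE87580 (13.3 against 9.02 RPM). They were below at AT1TE36060 (3.35 against 3.78 RPM) and AT2TE04910 (0 against 1.78 RPM). Besides AT1TE67645, AT1TE58820 was the other element higher in AGO5 at day 35, with 772 and 556 RPM against 308 and 312 RPM (1.08 ± 0.36, limma adjusted p = 0.045).

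**Figure D4:**
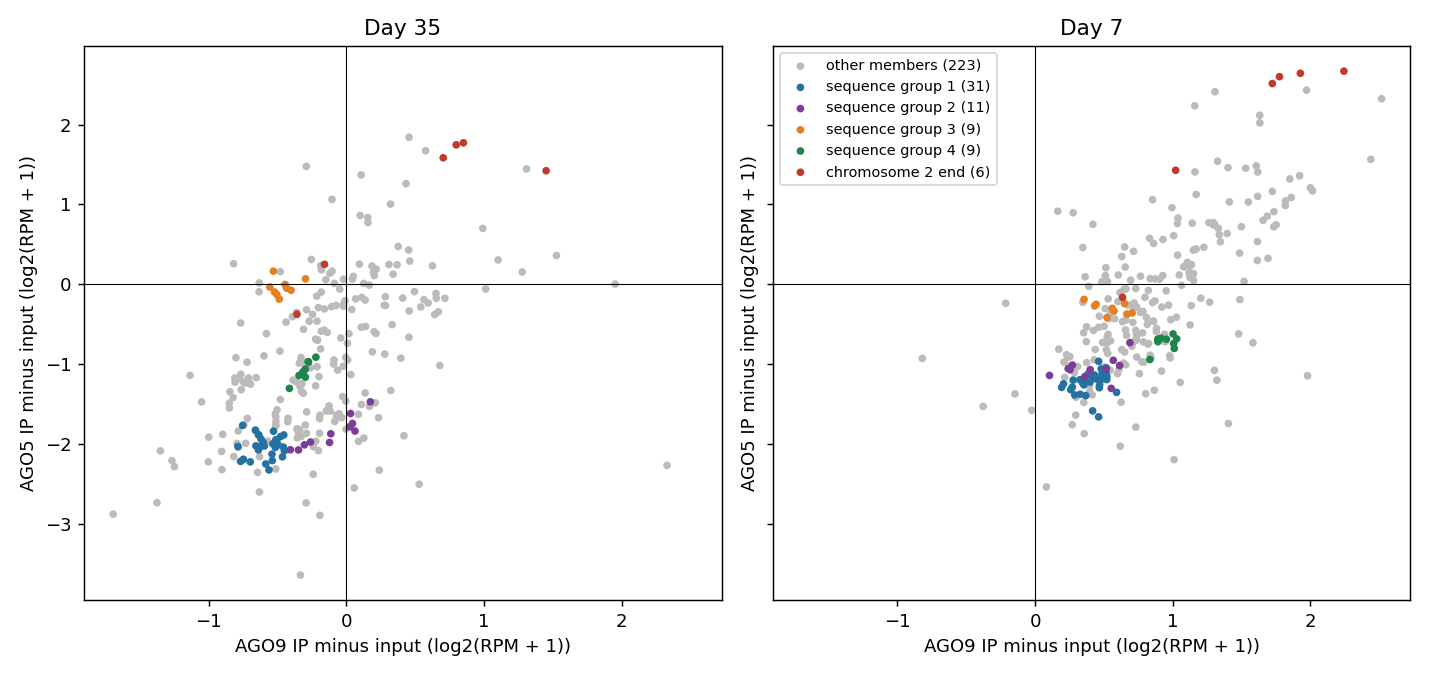
AGO9 IP minus input (horizontal) against AGO5 IP minus input (vertical) for the 289 tested elements, both on the log2(RPM + 1) scale, at day 35 (left) and day 7 (right), coloured by set. The 31 elements of sequence group 1 form a cluster near -2 on the AGO5 axis at day 35, and the chromosome 2 end lies mostly at the upper right.

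With age, small RNA on the elements increased in the input: 83 of 289 were higher and 0 lower at day 35 than at day 7 (11.2% and 5.44% of all features), with a median of 0.88 against 0.48. All 31 tested elements of group 1, all 11 of group 2 and all 9 of group 3 were among them, and relatives share sequence. Among the 175 tested elements in no sequence group, 12 were higher and 0 lower, with a median of 0.73. For group 1 the count was 0 with median centring, edgeR and TE scaling and 2 with DESeq2, and for group 3 it was 6 with median centring and 1 with edgeR. The count over the 289 was 11 to 20 when any input replicate was left out, and 12 with edgeR. Among the 10 most abundant, AT2TE02465, 15815 bases, had 931 and 897 RPM in day 35 inputs and 418 and 479 RPM in day 7 inputs, and AT1TE34015 had 748 and 1132 RPM and 503 and 542 RPM. The change of the IP minus input difference between the ages was called for 0 elements in AGO5 (49 had an unadjusted p under 0.05; all features 0.382% higher and 0.106% lower) and for 1 in AGO9, AT4TE32315 (-2.93 ± 0.67, limma adjusted p = 0.048), against 1.20% higher and 0.711% lower of all features. That call was lost in 13 of the 18 alternatives that tested it, among them median centring (limma adjusted p = 0.278), edgeR, DESeq2 and leaving out any 1 of 7 of the 8 libraries compared.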

How the data were processed

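Small RNA was measured in 16 libraries. Per the submitters' processing notes, the reads were trimmed with cutadapt 1.18 and processed with Bowtie2 2.3.5.1 and featureCounts of Subread 2.0.1 on TAIR10. How multi-mapping reads and strand were treated is not given in the sources used here. The authors deposited RPM values for 21, 22, 23 and 24 nt reads, which were summed here, and all values were whole multiples of 1 read (100% within 0.01 reads), so counts could be recovered. A deposited combined column was inconsistent with its parts in 1 library, was treated as a score of unknown making by the authors, and was not used.

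Differences were tested on log2(RPM + 1) with limma 3.58.1 over 8 groups, for 17020 features with a mean of 1 RPM or more, in 13 comparisons, with Benjamini-Hochberg adjustment at 0.05 over all features. Shares were tested by exact permutation. Alternatives were edgeR 4.0.16 and DESeq2 1.42.0 on recovered reads, other scalings, filters, pseudocounts and leaving out libraries. Sequence groups came from BLAST 2.17.0. The rule names the 10 most abundant elements and, per comparison and direction, up to 4 or 2 of the elements with the largest differences among those past the threshold, with a mean of 10 RPM or more and no overlap between groups. Others named were chosen after values were seen. The elements and lists were chosen with earlier results of these data known. Procedures were tested on simulated data.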

Additional observations from a re-analysis of the deposited data

Results flagged for a closer look

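AT4TE32315 was the element whose AGO9 IP minus input difference changed between ages, by -2.93 (limma adjusted p = 0.048). It had 2.2297 and 0.746 RPM in AGO9 IPs and 5.58 and 4.57 RPM in inputs at day 35, and 24.8 and 17.7 RPM in AGO9 IPs and 5.82 and 6.90 RPM in inputs at day 7. The call was lost with median centring (limma adjusted p = 0.278), quantile normalization (0.132), scaling to TE reads (0.304), a pseudocount of 0.25 (0.139), edgeR (0.9998), DESeq2 (0.795) and without any 1 of the 8 libraries compared except day 35 AGO9 replicate 1. It was kept in the other 5 of the 18 alternatives that tested it. The median of the same AGO9 change was -0.96 over all features and -0.99 over the 289 elements, and -0.04 over all features with median centring. For AGO5 it was -0.56 over all features and -0.76 over the elements. In the differences below, the IP libraries lay on opposite sides of the inputs at the 2 ages. The 2 differences of shares were not tested. The share of all reads on the elements differed, AGO9 IP minus input, by -2.85 percentage points between day 35 and day 7. The 24 nt share differed, AGO5 IP minus input, by -20.4 points. Single elements were tested in the limma fit and none passed, with adjusted p between 0.102 and 0.343. Their AGO9 change was -0.94 at AT1TE34015, -1.08 at AT2TE02465, -1.62 at AT1TE64240, -1.28 at AT1TE02075, -1.08 at AT1TE60640, -1.12 at AT1TE14085 and -0.98 at AT1TE58820. The AGO5 change at AT3TE37060 was -1.38.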

How the results depend on the processing

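Of 278 counts of called elements under alternatives, 158 were within 1.5 times the reported one and 120 were not. For single elements named by the rule, 543 of 665 values kept direction and call, 121 lost the call and 1 reversed: AT2TE35840 in AGO5 against GFP-only IP at day 35, 0.0575 with 24 nt reads alone. With 24 nt reads alone, there were 2 higher for AGO5 against input at day 35, 0 higher for AGO9 against input at day 35, 0 higher and 158 lower for AGO5 against AGO9 at day 35 and 25 higher for the input with age. The same setting gave 6 lower for the change of AGO9 minus input with age, 10 higher and 2 lower for AGO5 against input at day 7, 132 higher for AGO9 against input at day 7 and 176 higher for AGO5 against GFP at day 7. DESeq2 called 29 higher for AGO5 against input at day 35, 14 higher for AGO9 against input at day 35, 62 lower for AGO5 against GFP at day 35 and 103 higher and 2 lower for AGO9 against GFP at day 35. Further counts were 21 higher for AGO5 against AGO9 at day 35, 25 higher and 2 lower for the input with age, 1 higher and 1 lower for the change of AGO5 minus input with age and 1 higher and 0 lower for the change of AGO9 minus input with age. In addition there were 35 higher for AGO5 against input at day 7, 20 higher and 3 lower for AGO9 against input at day 7, 37 higher and 33 lower for AGO5 against GFP at day 7 and 28 higher and 6 lower for AGO9 against GFP at day 7. In addition there were 13 higher and 63 lower for AGO5 against AGO9 at day 7. With GFP-only libraries left out of the fit, there were 7 higher and 10 lower for AGO9 against input at day 35, 8 higher and 147 lower for AGO5 against AGO9 at day 35, 145 higher for the input with age and 7 lower for the change of AGO5 minus input with age. Other counts there were 70 lower for the change of AGO9 minus input with age, 34 higher and 106 lower for AGO5 against input at day 7, 121 higher for AGO9 against input at day 7 and 2 higher and 193 lower for AGO5 against AGO9 at day 7. edgeR called 17 higher and 63 lower for AGO5 against input at day 35, 5 lower for AGO5 against GFP at day 35, 94 higher for AGO9 against GFP at day 35 and 14 higher and 49 lower for AGO5 against AGO9 at day 35. The same setting gave 12 higher for the input with age, 0 lower for the change of AGO9 minus input with age, 6 lower for AGO5 against input at day 7 and 2 higher for AGO9 against input at day 7. In addition there were 32 higher and 3 lower for AGO5 against GFP at day 7, 11 higher and 1 lower for AGO9 against GFP at day 7 and 12 higher and 2 lower for AGO5 against AGO9 at day 7. With a mean of 10 RPM or more, there were 4 lower for AGO9 against input at day 35, 5 higher for AGO5 against AGO9 at day 35, 2 lower for the change of AGO9 minus input with age and 1 lower for AGO5 against GFP at day 7. Median centring gave 21 higher and 72 lower for AGO5 against input at day 35, 10 higher for AGO9 against input at day 35, 48 lower for AGO5 against GFP at day 35 and 68 higher and 1 lower for AGO9 against GFP at day 35. Other counts there were 20 higher for AGO5 against AGO9 at day 35, 18 higher and 2 lower for the input with age, 0 lower for the change of AGO9 minus input with age and 17 higher for AGO9 against input at day 7. In addition there were 21 higher and 14 lower for AGO5 against GFP at day 7, 12 higher and 2 lower for AGO9 against GFP at day 7 and 10 higher and 19 lower for AGO5 against AGO9 at day 7. Without a filter, there were 5 lower for AGO5 against GFP at day 35, 0 higher for AGO5 against AGO9 at day 35, 1 lower for the input with age and 1 higher and 3 lower for the change of AGO9 minus input with age. The same setting gave 1 lower for AGO9 against input at day 7 and 2 lower for AGO9 against GFP at day 7. Scaling to reads on TE features gave 73 lower for AGO5 against GFP at day 35, 70 higher and 2 lower for AGO9 against GFP at day 35, 8 higher for AGO5 against AGO9 at day 35 and 23 higher for the input with age. Further counts were 0 lower for the change of AGO9 minus input with age, 13 higher and 102 lower for AGO5 against input at day 7, 18 higher for AGO9 against input at day 7 and 20 higher and 28 lower for AGO5 against GFP at day 7. In addition there were 95 higher and 2 lower for AGO9 against GFP at day 7 and 3 higher for AGO5 against AGO9 at day 7. A pseudocount of 0.25 gave 0 lower for the change of AGO9 minus input with age and 31 higher for AGO9 against input at day 7. Quantile normalization gave 17 higher for AGO5 against input at day 35, 7 higher for AGO9 against input at day 35, 50 lower for AGO5 against GFP at day 35 and 61 higher and 1 lower for AGO9 against GFP at day 35. The same setting gave 9 higher for AGO5 against AGO9 at day 35, 2 lower for the input with age, 31 higher for AGO9 against input at day 7 and 29 higher and 13 lower for AGO5 against GFP at day 7. In addition there were 96 higher and 2 lower for AGO9 against GFP at day 7 and 3 higher and 79 lower for AGO5 against AGO9 at day 7. Replicate numbers were not taken to pair the samples, and whether they do is not known. The fit with the replicate block gave 7 higher for AGO5 against AGO9 at day 35, 6 lower for the change of AGO9 minus input with age and 4 higher for AGO5 against AGO9 at day 7. Leaving out 1 library at a time gave 2 to 7 higher and 82 to 98 lower for AGO5 against input at day 35, 0 to 2 higher for AGO9 against input at day 35, 3 to 34 lower for AGO5 against GFP at day 35, 94 to 161 higher and 0 to 4 lower for AGO9 against GFP at day 35. This also gave 0 to 2 higher and 56 to 82 lower for AGO5 against AGO9 at day 35, 11 to 20 higher for the input with age, 0 to 2 lower for the change of AGO5 minus input with age, 0 to 1 lower for the change of AGO9 minus input with age. This also gave 0 to 23 higher and 0 to 51 lower for AGO5 against input at day 7, 0 to 19 higher for AGO9 against input at day 7, 55 to 125 higher and 0 to 2 lower for AGO5 against GFP at day 7, 0 to 5 higher and 52 to 90 lower for AGO5 against AGO9 at day 7. The AGO5 minus input share of reads at day 7 ranged between -0.496 and 0.314 points with 1 library left out, 0.0560 without input replicate 2. For the age difference of the input, the 24 nt share ranged between -4.28 and 0.144 points and the 22 nt share between -0.352 and 0.789, with -0.00899 without the 10 most abundant elements and -0.264 as a mean over elements. The AGO9 minus input 22 nt share at day 35 ranged between -3.87 and 0.848. The causes were not tested. The correlation of same-numbered libraries was 0.507 for AGO5 and AGO9 at day 7 and between -0.012 and 0.094 otherwise. GFP-only libraries at day 35 were the shallowest, so low elements there are bounded by 0.721 and 0.838 RPM.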
